A study of Rattus norvegicus with 9 samples.

Results

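The 10 genes described here carry fatty acids from the blood into the mitochondria of muscle and break them down there, together with 1 protein of the inner mitochondrial membrane that uncouples respiration. They are Lpl, Cd36 and Fabp3 for uptake, Acsl1, Cpt1b and Cpt2 for activation and entry into mitochondria, Acadm, Acadl and Hadha for β-oxidation, and Ucp3 for uncoupling. The list was given by name, and each gene was found by matching the NCBI rat gene ID in the files to its RefSeq symbol. It was chosen with earlier results of these data known. All 10 were measured, out of 13752 gene IDs in the series, and all 10 passed the filter on low counts among 10129 genes tested. The question asked of them was whether Ucp3 moves with or against the oxidation enzymes.

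Messenger RNA was sequenced on a BGISEQ-500 from the gastrocnemius, the large calf muscle supplied by the sciatic nerve, of male rats aged 8 weeks. The SHAM group had a sham operation, the DN group a sciatic nerve injury, and the DN-SM group a sciatic nerve injury followed by daily electrical stimulation through surface electrodes over the muscle for 4 weeks from the day of surgery (25 V, 1 mA, 2 Hz, pulse width 300 ms). SHAM and DN rats were anaesthetised and wore the electrodes for 10 minutes without current, so electrodes were common to all 3 groups. There were 3 libraries per group, with 7926445 to 8893843 expected counts each. The labels do not give the strain, the kind of nerve injury, the time of collection of SHAM and DN muscle, the time of day, the feeding state, or whether each library is a separate animal. The p-values therefore measure the spread between these libraries, which may be partly technical.

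Muscle takes fatty acids from circulating lipoproteins after lipoprotein lipase, made from Lpl, has released them at the capillary wall. Cd36 helps them across the cell membrane, Fabp3 binds them in the cytosol, and Acsl1 joins them to coenzyme A. Cpt1b, the muscle form of carnitine palmitoyltransferase 1, and Cpt2 move the chains across the mitochondrial membranes on carnitine, and Acadl, Acadm and Hadha shorten them inside. Ucp3 is a mitochondrial carrier found mainly in skeletal muscle and brown fat. Its transcript is known to rise with fasting and with circulating fatty acids, and many genes of fatty acid oxidation share with it the regulation by PPAR nuclear receptors.

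Levels are given as the authors' FPKM (fragments scaled to transcript length and library size), which are per length and so can be compared between genes. Fold changes are on the log2 scale from 1 fit of all 9 libraries with edgeR's quasi-likelihood test, and adjusted p-values are Benjamini-Hochberg values over all genes tested, with a threshold of 0.05. The 3 comparisons share their groups of libraries and are not independent of each other.

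Ucp3 (gene ID 25708) was the member that changed, and it was lower in both injured groups. In SHAM it stood at 34.6, 34.9 and 63.8 FPKM in replicates 1 to 3. In DN it stood at 11.9, 18.4 and 13.4 FPKM. In DN-SM it stood at 7.99, 14.1 and 6.36 FPKM. Every SHAM library was above every injured library, whereas DN and DN-SM overlapped. Such a separation downwards from SHAM was present in 6.91% of all genes for DN and in 9.34% for DN-SM. In bulk muscle, fewer cells of a type and less RNA per cell cannot be told apart. The expected counts behind these levels were 661, 734 and 1369 in SHAM, 248, 374 and 276 in DN muscle, and 166, 294 and 122 in DN-SM. The group means were 44.4 ± 16.8 FPKM in SHAM, 14.6 ± 3.42 in DN muscle and 9.49 ± 4.09 in DN-SM (SD, n = 3 each).

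Ucp3 fell by 1.70 on the log2 scale in DN against SHAM (SE 0.36, 95% interval -2.51 to -0.88, edgeR adjusted p = 0.0379). SHAM was thus 3.24 times as high as DN, with an interval from 1.85 to 5.69. It fell by 2.22 in DN-SM against SHAM (SE 0.37, 95% interval -3.05 to -1.38, adjusted p = 0.0390). Among all genes tested, 25 (0.247%) had a log2 fold change as low as that of Ucp3 or lower in the first comparison and 8 (0.079%) in the second. Between DN-SM and DN the log2 difference of Ucp3 was -0.52 (SE 0.37, 95% interval -1.35 to 0.31, adjusted p = 0.475), and that interval holds both no difference and a further fall.

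Of the 10 members, 1 passed the threshold in DN against SHAM, where 4.26% of all genes did and 1.7% did so as lower in DN. In DN-SM against SHAM 1 of 10 passed, beside 0.839% of all genes and 0.425% as lower in DN-SM. In DN-SM against DN none passed, beside 0.00987% of all genes, which is a single gene; at an unadjusted p under 0.05, 1 member passed, beside 17.6% of all genes. DESeq2 also called no member there. The fold changes of the 10 genes are drawn with their intervals in the plot of log2 changes by comparison.

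The Ucp3 calls lay close to the threshold and were often lost when 1 library was left out. In DN against SHAM the log2 fold change ranged from -1.91 to -1.31 when each of the 9 libraries was left out in turn, and the adjusted p passed 4 times. Leaving out any of 5 libraries ended the call, SHAM replicate 2 (adjusted p = 0.108), DN replicate 1 (0.120), DN replicate 2 (0.0624), DN replicate 3 (0.148) or DN-SM replicate 1 (0.0595). DN-SM replicate 1 is in neither group of this comparison, and without it the log2 fold change of Ucp3 was -1.701. The number of all genes past the threshold was then 230, beside 432 with all libraries. A lost call therefore does not show that the library left out carried the difference. In DN-SM against SHAM the range was -2.61 to -1.83, and the call held only without SHAM replicate 1 (0.0431) or DN-SM replicate 2 (0.0270). It was lost without SHAM replicate 2 (0.0647) or 3 (0.0589), DN replicate 1 (0.0739), 2 (0.0508) or 3 (0.0611), or DN-SM replicate 1 (0.160) or 3 (0.103), and also with the replicate number as a block (0.0559). The direction was the same each time. By DESeq2 on all libraries the adjusted p was 1.34e-05 and 1.89e-09 in the 2 comparisons.

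**Figure D1:**
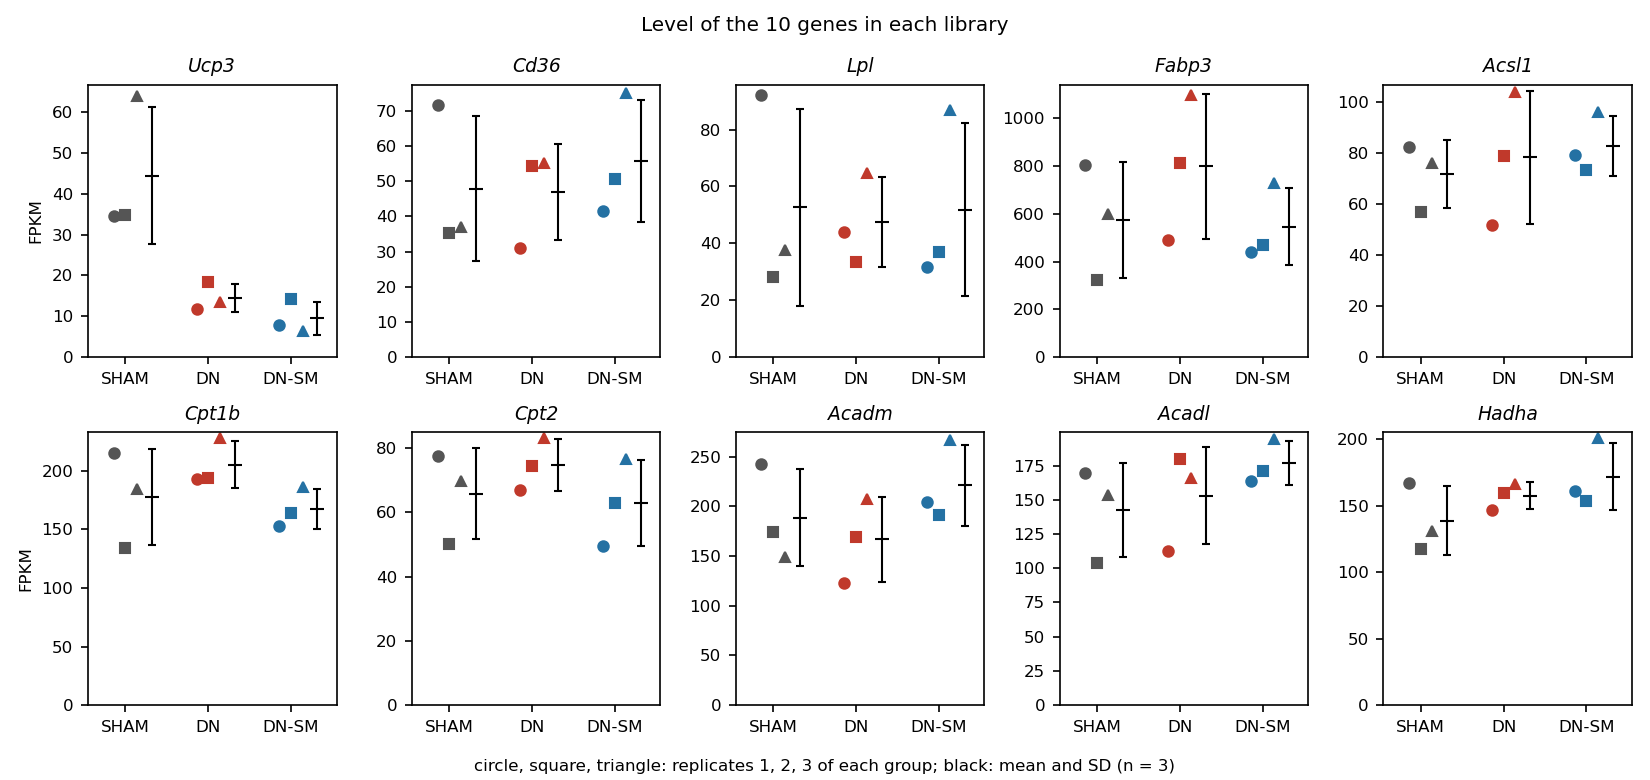
Level of each of the 10 genes in FPKM (vertical axes, each starting at 0) in the 3 libraries of SHAM, DN and DN-SM. Circles, squares and triangles are replicates 1, 2 and 3, and black bars are the mean and SD (n = 3). The 3 SHAM libraries of Ucp3 lie above all 6 injured libraries, while the other genes overlap between SHAM and each injured group.

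**Figure D2:**
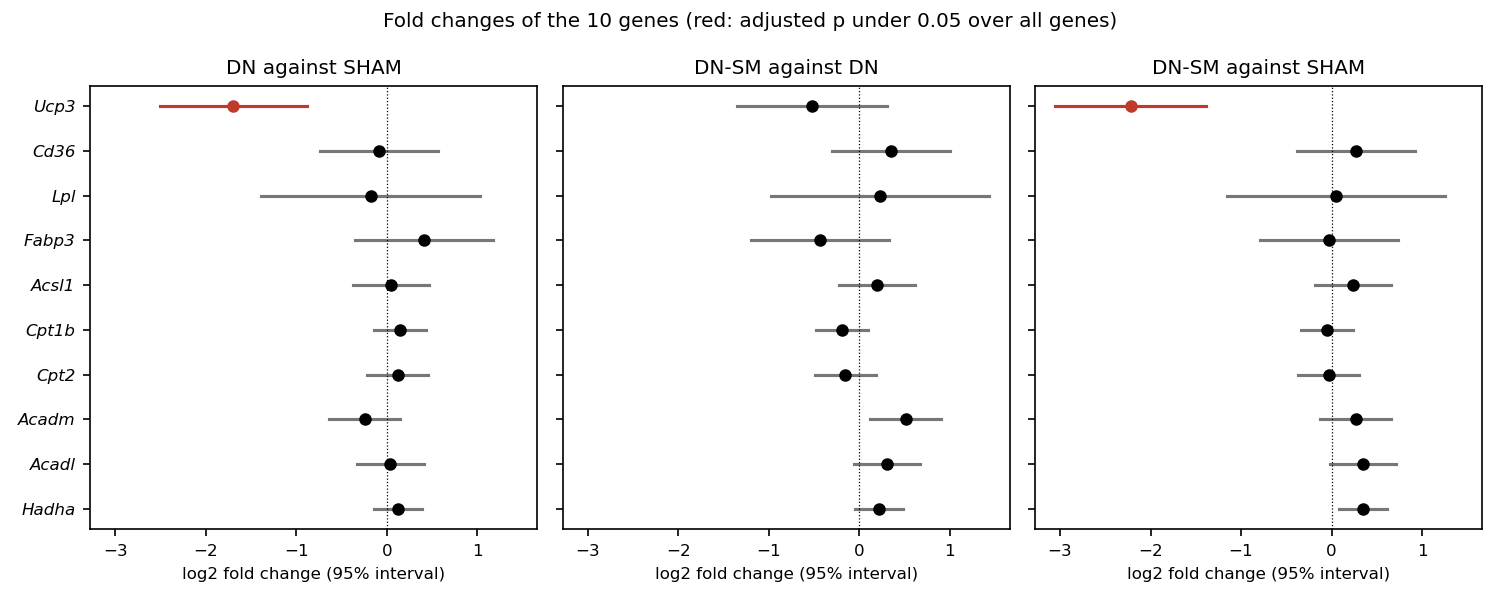
Log2 fold change of each gene (points) with its 95% interval (lines) from edgeR, with 1 panel for each of the 3 comparisons. Red marks an adjusted p under 0.05, which only Ucp3 reached, at -1.70 and -2.22.

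The promoter of Ucp3 is shown because nuclear receptors bind the core sequence AGGTCA, which PPAR receptors, together with RXR, bind as a pair in the same direction with 1 base between, and because its transcript passed the test where those of the enzymes did not. The RefSeq promoter table (build GRCr8, whereas the authors used rn6) held 7 of the 10 genes: Ucp3, Cd36, Fabp3, Acsl1, Cpt2, Acadm and Hadha. The 250 bases before the transcript start are printed for Ucp3 (chr1:164227660-164227909, plus strand) and, for comparison, for the enzymes Acadm (chr2:245542865-245543114, minus strand) and Hadha (chr6:31907551-31907800, plus strand), 5′ to 3′ along the gene, with AGGTCA on either strand in capitals.
Ucp3: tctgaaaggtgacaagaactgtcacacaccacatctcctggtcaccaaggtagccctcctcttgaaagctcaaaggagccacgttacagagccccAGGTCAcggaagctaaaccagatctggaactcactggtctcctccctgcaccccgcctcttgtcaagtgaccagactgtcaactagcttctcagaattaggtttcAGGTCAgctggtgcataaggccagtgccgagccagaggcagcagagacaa
Acadm: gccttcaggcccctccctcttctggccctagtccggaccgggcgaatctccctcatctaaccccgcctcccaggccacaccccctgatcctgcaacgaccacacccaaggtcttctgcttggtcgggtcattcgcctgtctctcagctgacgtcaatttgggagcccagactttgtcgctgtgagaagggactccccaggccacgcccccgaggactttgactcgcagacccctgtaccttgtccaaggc
Hadha: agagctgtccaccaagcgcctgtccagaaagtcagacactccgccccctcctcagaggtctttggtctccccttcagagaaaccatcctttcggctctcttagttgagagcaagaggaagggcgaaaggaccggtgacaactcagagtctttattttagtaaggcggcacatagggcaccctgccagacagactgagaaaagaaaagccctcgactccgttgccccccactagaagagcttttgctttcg

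The Ucp3 window holds AGGTCA at 2 places, from base -155 to -150 and from -50 to -45 before the start. The windows of the other 6 matched members hold none. Among 33469 rat promoters of the same length, 14.1% hold AGGTCA at least once on either strand and 1.27% hold it at 2 or more places. The full pair, AGGTCA followed after any 1 base by a second AGGTCA in the same direction, is in none of the 7 windows and in 0.0508% of all. The E-box CANNTG, bound by muscle and clock transcription factors among others, is in 5 of the 7 windows and in 65.5% of all; in Ucp3 it occurs at 2 places, of which that from -46 to -41 overlaps the second AGGTCA. A match of letters is a description of the window and does not show a bound site. Any part of these matches in the levels of Ucp3 or the enzymes was not tested.

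Acsl1, Cpt1b and Cpt2, which bring fatty acids into the mitochondrion, did not pass the test in any comparison. Acsl1 (gene ID 25288), the acyl-CoA synthetase, stood at 82.3, 56.8 and 75.9 FPKM in SHAM, 51.9, 78.8 and 104 in DN muscle, and 79.0, 73.3 and 95.9 in DN-SM. Its lowest and its highest library were both in DN, and all groups overlapped. The log2 fold change was 0.05 in DN against SHAM (95% interval -0.37 to 0.47, adjusted p = 0.918) and 0.24 in DN-SM against SHAM (-0.18 to 0.66, adjusted p = 0.643).

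Cpt1b (gene ID 25756), the enzyme that controls entry of long chains, was at 215, 134 and 184 FPKM in SHAM, 193, 194 and 228 in DN muscle, and 152, 164 and 186 in DN-SM. In FPKM the DN-SM libraries all lay below the DN libraries, a separation in that direction that 21.3% of all genes had in this comparison. On library-scaled counts with TMM factors (log2 CPM) the groups overlapped, with DN-SM replicate 3 (9.092) above DN replicate 2 (9.073). The log2 difference of DN-SM from DN was -0.19 (SE 0.13, 95% interval -0.48 to 0.09, adjusted p = 0.455). Against SHAM the log2 fold changes were 0.14 in DN (95% interval -0.14 to 0.43) and -0.05 in DN-SM (-0.34 to 0.24).

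Cpt2 (gene ID 25413), its partner on the inner membrane, was at 77.4, 50.0 and 69.8 FPKM in SHAM, 66.9, 74.3 and 83.2 in DN muscle, and 49.5, 62.9 and 76.5 in DN-SM. The 3 groups overlapped, and the log2 fold changes lay between -0.15 (DN-SM against DN) and 0.12 (DN against SHAM).

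The β-oxidation enzymes had their highest group means in DN-SM, without passing the test. Acadm (gene ID 24158), the medium-chain acyl-CoA dehydrogenase, was at 243, 174 and 149 FPKM in SHAM, 123, 169 and 208 in DN muscle, and 204, 192 and 267 in DN-SM. Its log2 difference of DN-SM from DN was 0.51 (SE 0.18, 95% interval 0.12 to 0.91, edgeR adjusted p = 0.199), the smallest p of a member in that comparison. DN replicate 3 lay inside the DN-SM range, and against SHAM the log2 fold changes were -0.25 in DN (adjusted p = 0.457) and 0.27 in DN-SM (adjusted p = 0.573).

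Acadl (gene ID 25287), the long-chain acyl-CoA dehydrogenase, was at 169, 104 and 154 FPKM in SHAM, 113, 180 and 166 in DN muscle, and 164, 171 and 195 in DN-SM. SHAM and DN covered nearly the same range. The log2 difference was 0.31 in DN-SM against DN (SE 0.17, adjusted p = 0.358) and 0.35 in DN-SM against SHAM (SE 0.17, adjusted p = 0.421).

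Hadha (gene ID 170670), the α subunit of the trifunctional protein, was at 167, 118 and 131 FPKM in SHAM, 147, 160 and 166 in DN muscle, and 161, 153 and 201 in DN-SM. SHAM replicate 1 lay above all 3 DN libraries. Its log2 fold change was 0.34 in DN-SM against SHAM (SE 0.12, 95% interval 0.08 to 0.61, edgeR adjusted p = 0.245) and 0.12 in DN against SHAM (adjusted p = 0.605). The intervals of the 6 enzymes in DN against SHAM reached at most -0.64 (Acadm) downwards, so a fall of the size fitted for Ucp3 lay outside the interval of each of them.

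The genes of uptake did not pass the test in any comparison. Lpl (gene ID 24539) was at 92.1, 28.2 and 37.6 FPKM in SHAM, 44.0, 33.6 and 64.9 in DN muscle, and 31.7, 37.1 and 86.9 in DN-SM. A single library per group was high, SHAM replicate 1, DN replicate 3 and DN-SM replicate 3, and the SD reached 65.6% of the mean in SHAM. The 95% interval of the log2 fold change in DN against SHAM ran from -1.39 to 1.03, so it holds both a fall and a rise of 2-fold.

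Cd36 (gene ID 29184), the fatty acid translocase, was at 71.6, 35.1 and 36.9 FPKM in SHAM, 31.1, 54.2 and 55.2 in DN muscle, and 41.4, 50.7 and 75.0 in DN-SM. All groups overlapped. Its log2 fold changes were -0.08 in DN against SHAM (adjusted p = 0.901) and 0.27 in DN-SM against SHAM (adjusted p = 0.744).

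Fabp3 (gene ID 79131), the heart and muscle fatty acid binding protein, was the most abundant of the 10 in every group. It was at 805, 322 and 601 FPKM in SHAM, 490, 812 and 1096 in DN muscle, and 440, 471 and 730 in DN-SM. Its log2 fold change was 0.41 in DN against SHAM (SE 0.34, adjusted p = 0.520) and -0.44 in DN-SM against DN (SE 0.34, adjusted p = 0.519), with overlap between all groups.

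In order of mean FPKM, Fabp3 was followed in SHAM by Acadm (189 ± 48.6), Cpt1b (178 ± 41.0), Acadl (142 ± 34.4) and Hadha (139 ± 25.8), which did not differ from each other beyond their SDs. Acsl1 (71.7 ± 13.3), Cpt2 (65.8 ± 14.1), Lpl (52.6 ± 34.5), Cd36 (47.9 ± 20.5) and Ucp3 formed the lower end, each within the SDs of its neighbours among them. Ucp3 was the lowest of the 10 in all 3 groups. In DN it was below the next gene, Cd36 (46.8 ± 13.6), by more than their SDs, and likewise in DN-SM below Lpl (51.9 ± 30.4).

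Ucp3 and the oxidation enzymes did not move together between the groups. The median log2 fold change of the 6 enzymes Acsl1, Cpt1b, Cpt2, Acadm, Acadl and Hadha was 0.08 in DN against SHAM and 0.25 in DN-SM against SHAM, where Ucp3 was at -1.70 and -2.22. The medians over all genes tested were -0.01 and 0.015. Of the 6 enzymes, 5 were above 0 in DN against SHAM and 4 in DN-SM against SHAM. In the latter Cpt1b was at -0.05 and Cpt2 at -0.03. In DN-SM against DN the median of the 6 was 0.21 and 4 were above 0, while Ucp3 was at -0.52 without passing. The mean log2 CPM (library-scaled counts with TMM factors) of the 6 enzymes was 8.16 ± 0.18 in SHAM, 8.20 ± 0.19 in DN muscle and 8.35 ± 0.19 in DN-SM (SD, n = 3). Nor was there an opposite change of the enzymes that passed a test, since none of the 6 did.

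The distance of Ucp3 from the enzymes was taken in each library as its log2 CPM minus the mean of the 6 enzymes. It was -2.05, -1.44 and -0.88 in SHAM. It was -3.12, -2.82 and -3.45 in DN. It was -3.89, -3.11 and -4.57 in DN-SM. The group means were -1.46 ± 0.58, -3.13 ± 0.32 and -3.86 ± 0.73, SHAM lay apart from both injured groups, and DN and DN-SM overlapped. The distances were the same with RLE factors, because a factor per library cancels in them. In FPKM, Ucp3 amounted to between 16.1% and 34.6% of Cpt1b in the SHAM libraries, 5.88% to 9.51% in DN muscle and 3.41% to 8.62% in DN-SM. Relative to Hadha it was 20.6% to 48.7%, 8.06% to 11.5% and 3.17% to 9.21%.

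**Figure D3:**
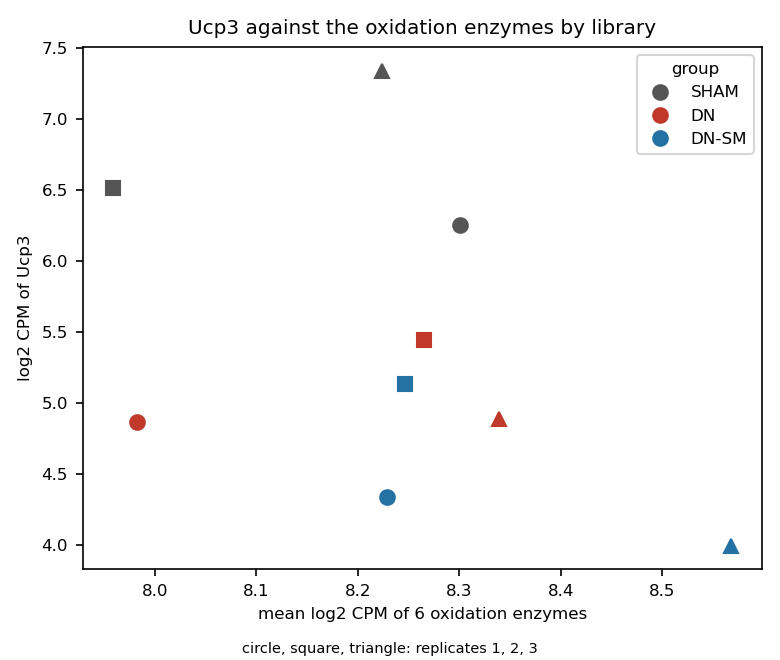
Log2 CPM of Ucp3 (vertical axis) against the mean log2 CPM of the 6 oxidation enzymes (horizontal axis) in each of the 9 libraries. SHAM libraries lie at the top, DN and DN-SM below. Horizontally the groups overlap, at 7.96 to 8.30 in SHAM, 7.98 to 8.34 in DN and 8.23 to 8.57 in DN-SM. DN-SM thus covers only the upper part of the range, with replicate 3 the highest at 8.57.

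Because SHAM lay apart from the other libraries in Ucp3, a correlation over all 9 would reflect that gap, and it was therefore taken over the 6 injured libraries. Pearson's r of log2 CPM between Ucp3 and Hadha was -0.80 (exact permutation p = 0.0389, adjusted p = 0.35 over 9 relations), and Spearman's rho was -0.49 (exact permutation p = 0.356, adjusted 0.8). Without the libraries farthest from the median of Ucp3, DN replicate 2 and DN-SM replicate 3, r was -0.68 over 4 libraries. Without DN-SM replicate 3 alone it was -0.50 (rho -0.1, 5 libraries), and on log2(FPKM + 1) it was -0.66 (exact permutation p = 0.149, adjusted 0.775). For Acadm r was -0.66 (rho -0.6, exact permutation p = 0.151 and 0.242, adjusted 0.546 and 0.8) and -0.28 without those libraries. For Lpl r was -0.62 (rho -0.6, exact permutation p = 0.182 and 0.242, adjusted 0.546 and 0.8) and 0.45 without them, so that relation rested on them. The other 6 genes had r between -0.41 (Acsl1) and 0.14 (Cpt1b). None of the 9 relations passed after adjustment. Over all 9 libraries, as planned, r with Hadha was -0.78 (exact permutation p = 0.0101, adjusted 0.0912). Spearman's rho was -0.72 (exact permutation p = 0.0369, adjusted 0.332). No relation passed after adjustment there either. As deviations from group means over the 9 libraries, r with Hadha was -0.54.

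The enzymes did vary together from library to library. Over the 9 libraries, with each library's log2 CPM taken as its deviation from its group mean, all 15 pairs of the 6 enzymes had a positive r, from 0.30 to 0.89 with a median of 0.64. Ucp3 had r from -0.59 to 0.26 with the 6 enzymes, with a median of -0.07 and 2 of 6 above 0. These values are descriptions: all genes share the same 9 libraries, and with 3 libraries per group the deviations are few. The share of positive pairs over all genes was not computed, so the count does not set the enzymes apart from other genes.

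Levels of the members by library were set beside those of slow-fibre transcripts. Slow oxidative fibres burn more fatty acid than fast ones, and the gastrocnemius holds both. The sum of 8 slow-fibre genes was 15150, 4192 and 10038 FPKM in SHAM, 16118, 15560 and 21286 in DN muscle, and 7489, 7577 and 17220 in DN-SM. The highest library of each group was SHAM replicate 1, DN replicate 3 and DN-SM replicate 3. In 8 of the 10 members the highest FPKM of each group fell in that same library, as it did in 12.1% of all genes tested (1223 of 10129). Acadl matched in 2 groups, and Ucp3 in none. The count depended on the scale: on log2 CPM the slow-fibre sum was highest in the same 3 libraries, but 4 of the 10 members (Fabp3, Cpt1b, Acadm and Lpl) matched in all 3 groups, beside 4.48% of all genes tested.

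The r between a member's log2 CPM and the log2 of the slow-fibre FPKM sum, both as deviations from group means, was 0.96 for Cpt1b, 0.91 for Lpl, 0.86 for Fabp3 and for Hadha, 0.84 for Cpt2, 0.72 for Cd36, 0.63 for Acadl, 0.59 for Acsl1 and 0.51 for Acadm. It was -0.34 for Ucp3. The spread of this r over all genes was not computed, so these values are descriptions as well. None of the 8 slow-fibre genes and none of 10 fast-fibre genes passed the test between groups. The slow sum in DN (15560 to 21286) nevertheless lay above that of every SHAM library (4192 to 15150). All 8 slow-fibre genes had a log2 fold change above 0 in DN against SHAM (median 0.82), and 0 did in DN-SM against DN (median -0.53). Of the 10 fast-fibre genes, 3 were above 0 in the first comparison (median -0.31) and 9 in the second (median 0.40). In DN-SM against SHAM 8 slow-fibre genes (median 0.26) and 6 fast-fibre genes (median 0.045) were above 0. The part of fibre makeup, or of where in the muscle a piece was taken, in the levels of the members was not tested.

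**Figure D4:**
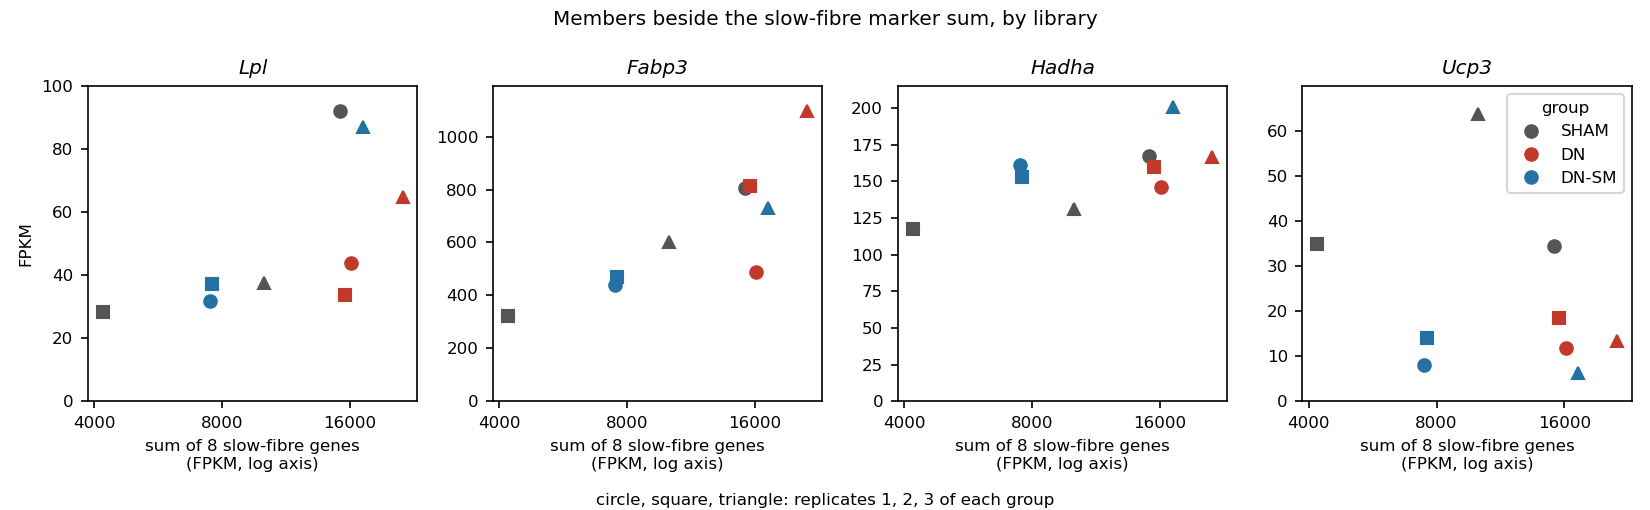
FPKM of Lpl, Fabp3, Hadha and Ucp3 (vertical axes, from 0) against the summed FPKM of 8 slow-fibre genes (horizontal log axis) in each library. Lpl is highest in the library with the largest slow-fibre sum of each group, SHAM replicate 1, DN replicate 3 and DN-SM replicate 3, and Ucp3 is not.

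The genes whose levels ran most like Ucp3 over the 9 libraries were searched among 5402 genes with a mean FPKM of at least 5, by Pearson's r of log2 CPM. The gap between SHAM and the injured groups is part of this likeness. The nearest was Lpin1 (r = 0.979), a phosphatidate phosphatase that also acts with PPAR coactivators, at 21.4 ± 1.86 FPKM in SHAM, 13.2 ± 1.62 in DN muscle and 10.3 ± 2.14 in DN-SM. It was followed by Snrnp200 (0.965), a helicase of the spliceosome, Scrib (0.961), a protein of cell polarity, Mapkapk3 (0.961), a kinase, and Asb10 (0.959). Of these 5, Lpin1 alone passed the test, and the others had log2 fold changes in DN against SHAM between -0.41 (Asb10) and -0.24 (Snrnp200). The other members ranked from Cpt2 at 2879 (r = -0.002), near the middle of the order, to Hadha at 5316 (r = -0.782), near its end.

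Beyond the 10 members, lists of further genes of fatty acid use were counted in each comparison. Like the members, these lists were chosen with earlier results of these data known. Their counts beside the share over all genes are therefore descriptions. Of 20 regulators and PPAR-responsive genes, 3 were lower in DN than in SHAM (1.7% of all genes were), none was higher, and the median log2 fold change was -0.35 beside -0.01 over all genes. Pdk4, the kinase that holds back glucose oxidation and rises in fasting, was at 71.0, 61.8 and 80.2 FPKM in SHAM and 29.1, 26.3 and 31.0 in DN. All SHAM libraries were above all DN libraries, a separation in that direction that 6.91% of all genes had. Pdk4 fell by 1.38 (SE 0.21, edgeR adjusted p = 0.00920), a call lost without DN replicate 3 (adjusted p = 0.0525). Lpin1 fell by 0.77 (SE 0.16, adjusted p = 0.0281), lost without SHAM replicate 2 (0.0501), DN replicate 1 (0.082) or DN replicate 3 (0.126). Rxra, the partner of the PPAR receptors, fell by 0.61 (SE 0.15, adjusted p = 0.0424) and kept its call only without SHAM replicate 3 or DN-SM replicate 3, with adjusted p up to 0.163 (without DN replicate 3).

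In DN-SM against SHAM, which uses the same SHAM libraries, 3 genes of this list were lower (0.425% of all genes were) and none was higher, with a list median of -0.25 beside 0.015 over all genes. The log2 fold changes were -1.03 for Lpin1 (adjusted p = 0.0184), -0.76 for Rxra (0.0414) and -1.11 for Pdk4 (0.0414). Lpin1 lost its call without DN-SM replicate 1 (0.0703) or DN-SM replicate 3 (0.058). Rxra passed again only when SHAM replicate 2 or DN replicate 3 was the library left out, and Pdk4 when DN-SM replicate 2 was, with adjusted p up to 0.114 for each (without DN-SM replicate 3). The receptors themselves did not pass: Ppara was at -0.11 (adjusted p = 0.851) and Ppard at 0.01 (adjusted p = 0.982) in DN against SHAM, and the coactivator Ppargc1a at -0.33 (adjusted p = 0.558).

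Of 18 further genes of lipid uptake and storage, 3 were higher in DN than in SHAM (2.57% of all genes were) and none was lower, with a median of 0.21. Against SHAM, 1 was higher in DN-SM, beside 0.415% of all genes. Gpihbp1, the capillary protein that anchors lipoprotein lipase, was at 6.45, 6.75 and 7.52 FPKM in SHAM, 19.8, 18.1 and 22.5 in DN muscle, and 17.4, 12.4 and 15.4 in DN-SM. SHAM lay below both injured groups without overlap, as it did in 15.9% of all genes for DN and 7.49% for DN-SM. Gpihbp1 rose by 1.46 in DN against SHAM (SE 0.16, edgeR adjusted p = 0.00232), passed also without any 1 of the 9 libraries (highest adjusted p = 0.0139), and by 1.14 in DN-SM against SHAM (SE 0.17, adjusted p = 0.0123), a call lost without DN-SM replicate 1 (0.0576). Lpl, whose product it holds, was at -0.18 and 0.05 in the same comparisons.

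Fabp5, a fatty acid binding protein of endothelium, macrophages and fat, rose by 1.44 in DN against SHAM (SE 0.26, adjusted p = 0.0137), a call lost without DN replicate 3 (0.0754). Cav1, the coat protein of caveolae, rose by 0.55 (SE 0.13, adjusted p = 0.0364) and kept its call only without SHAM replicate 3 or DN replicate 1, with adjusted p up to 0.149 (without DN replicate 3). Endothelial markers moved with these genes in DN against SHAM. Of 8, the 4 genes Pecam1, Cdh5, Tie1 and Esam were higher in DN (2.57% of all genes were). The summed level of the 8 was 112 to 139 FPKM in SHAM, 167 to 224 in DN muscle and 154 to 169 in DN-SM. Pecam1 was 0.63 higher (adjusted p = 0.0123) and Cdh5 0.65 higher (0.0137), both lost without DN replicate 3 (0.0612 and 0.0736). Tie1 (adjusted p = 0.0195) was also lost without SHAM replicate 2 or DN replicate 2, and Esam (0.0329) kept its call when DN replicate 1, SHAM replicate 3 or DN-SM replicate 3 was left out and in no other case. In DN-SM against SHAM 1 of the 8 passed, Cdh5 at 0.59 (edgeR adjusted p = 0.0448), beside 0.415% of all genes higher. That call was lost without 6 of the 9 libraries (adjusted p up to 0.191). Log2 fold changes were above 0 for 7 of the 8 in DN against SHAM and for 5 in DN-SM against SHAM. No endothelial marker was at 0 throughout a group, and the part of vessel cells in Gpihbp1, Fabp5 and Cav1 was not tested.

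Of 8 adipocyte markers, 5 were tested and 1, Thrsp, was higher in DN (adjusted p = 0.0206), beside 2.57% of all genes. Its call was lost without SHAM replicate 1 or 2 or DN replicate 2 or 3 (up to 0.0705). The summed level of the 8 adipocyte markers was 10.4 to 28.9 FPKM in SHAM, 30.4 to 62.0 in DN muscle and 13.4 to 27.7 in DN-SM. None was at 0 throughout a group, and their part in the levels of Lpl and Cd36, which fat cells also make, was not tested. No macrophage (7 genes) or fibroblast (5 genes) marker passed. Of 6 Schwann cell markers 2 were higher in DN, Ngfr (edgeR adjusted p = 0.0136) and Mbp (0.0455), beside 2.57% of all genes. Ngfr lost its call without DN replicate 1 (0.0518) or 3 (0.0525), and Mbp kept its call only without DN-SM replicate 2 or 3. Of 8 genes written for skeletal muscle tissue 5 were measured. Their sum was 104220 to 109477 FPKM in SHAM, 118117 to 130800 in DN muscle and 115076 to 124227 in DN-SM. Every SHAM library lay below the injured ones in this sum, most of which was Acta1. Acta1 was at 63509 to 70217 FPKM in SHAM, 76206 to 86465 in DN and 76616 to 82681 in DN-SM. Ckm and Mb overlapped between SHAM and each injured group. None of the 5 passed as higher, and the list medians against SHAM were 0.056 in DN and 0.019 in DN-SM. Of the 5, 1 was lower in DN, Cacna1s, the calcium channel of the muscle membrane, beside 1.7% of all genes. Its log2 fold change was -0.67 (edgeR adjusted p = 0.0285). That call was lost without SHAM replicate 2 (0.0669), DN replicate 2 (0.0766) or DN replicate 3 (0.127).

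Of 18 further genes of β-oxidation and electron transfer, 1 was higher (2.57% of all genes were) and 1 lower (1.7%) in DN than in SHAM. Acaa2, the mitochondrial thiolase of the last step of β-oxidation, was at 166, 108 and 159 FPKM in SHAM, 195, 229 and 238 in DN muscle and 188, 211 and 186 in DN-SM. Its SHAM libraries lay below all injured ones, as they did for DN in 15.9% and for DN-SM in 7.49% of all genes. It rose by 0.55 in DN against SHAM (SE 0.13, adjusted p = 0.0401). Acad11, an acyl-CoA dehydrogenase, fell by 0.87 (SE 0.21, adjusted p = 0.0411). Each kept its call only without SHAM replicate 3, with adjusted p up to 0.132 for Acaa2 (without DN replicate 3) and 0.129 for Acad11 (without DN replicate 1). Acadvl was at 0.28 (adjusted p = 0.259) and Hadhb, the β subunit that pairs with Hadha, at 0.08 (adjusted p = 0.746).

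No gene passed in DN against SHAM among 15 genes of activation and the carnitine shuttle, 9 of peroxisomal oxidation and ketone use, 7 other uncoupling proteins and inner membrane carriers, and 10 of mitochondrial content. The smallest adjusted p of each belonged to Acsl3, an acyl-CoA synthetase (-0.70, adjusted p = 0.181), Bdh1, a ketone body dehydrogenase (-1.51, 0.121), the ADP/ATP carrier Slc25a5 (0.51, 0.121) and the cytochrome oxidase subunit Cox4i1 (0.28, 0.215). For DN-SM against SHAM none passed in these lists or among the 18 of β-oxidation. Ucp2, the relative of Ucp3 found in many cell types, was at 22.5 ± 6.1 FPKM in SHAM, 22.0 ± 3.58 in DN muscle and 22.8 ± 8.56 in DN-SM. Its log2 fold change in DN against SHAM was -0.09 (SE 0.26, adjusted p = 0.882). Cs, the citrate synthase often used as a measure of mitochondria, had a log2 fold change of -0.002 (SE 0.11).

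DN-SM against DN compares injured muscle with and without stimulation. None of the 97 genes in the 7 lists passed there, beside 0.00987% of all genes. By edgeR 17 of the 97 had an unadjusted p under 0.05, beside 17.6% of all genes, so that count was near the share over all genes. The gene with the smallest p in each list was higher in DN-SM in 6 lists, without passing. These were Acsl3 (log2 difference 1.11, adjusted p = 0.144), Ndufs1 of respiratory complex I (0.59, 0.144), Etfdh, which passes electrons from β-oxidation to ubiquinone (0.54, 0.148), Nrip1, a corepressor of oxidative genes (0.65, 0.207), the ADP/ATP carrier Slc25a4 (0.34, 0.211) and Abcd3, a peroxisomal transporter (0.58, 0.211). In the list of uptake and storage it was Fabp5, lower at -0.79 (adjusted p = 0.182). The count of 0 list genes past the threshold depended on the fit, and so did the count over all genes tested. The latter was 1 by edgeR on all 9 libraries, 339 without SHAM replicate 2 and 416 without SHAM replicate 3. It was 716 in the fit of the 2 injured groups and 222 by DESeq2. Of the 97 list genes, 3 passed in each of the fits without SHAM replicate 2 or 3 and by DESeq2. In the fit of the 2 groups 5 of 94 passed. Acsl3, Ndufs1 and G0s2, an inhibitor of fat breakdown that was lower in DN-SM, passed without SHAM replicate 2 (adjusted p = 0.011, 0.0404 and 0.0454) and by DESeq2 (0.0252, 0.0248 and 0.04). Acsl3, Ndufs1 and Etfdh passed without SHAM replicate 3 (0.0189, 0.0221 and 0.0487), and Acsl3, Ndufs1, Etfdh, G0s2 and Nrip1 when the 2 injured groups were fitted without SHAM (0.00291 for Acsl3 to 0.0366 for Nrip1). The list medians lay between -0.133 (uptake and storage) and 0.213 (peroxisomal oxidation), beside -0.011 over all genes.

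**Figure D5:**
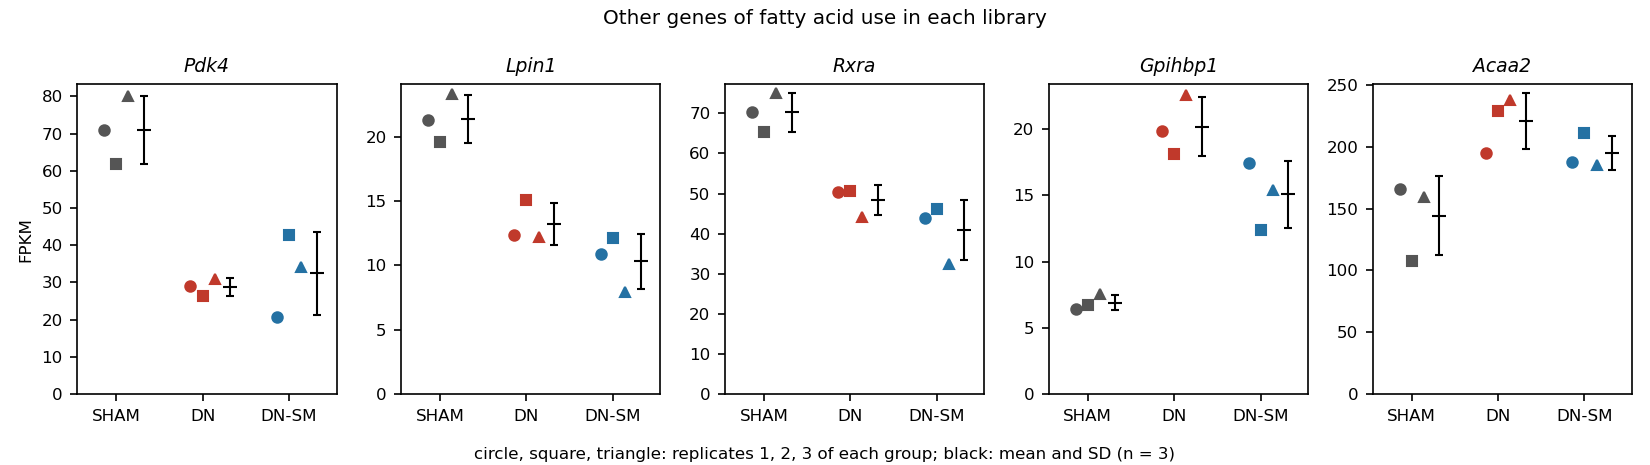
FPKM (vertical axes, from 0) of Pdk4, Lpin1, Rxra, Gpihbp1 and Acaa2 in each library of SHAM, DN and DN-SM, with the mean and SD (n = 3) in black. Pdk4, Lpin1 and Rxra are lower in all 6 injured libraries than in SHAM, and Gpihbp1 and Acaa2 are higher in all 6. For DN, 6.91% of all genes were separated from SHAM as lower and 15.9% as higher. For DN-SM the shares were 9.34% and 7.49%.

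Clock genes differed between SHAM and the injured groups as well. They were named after values were seen, so their counts are descriptions. Of 13 measured and tested, 3 were higher and 2 lower in DN than in SHAM, and 3 were higher and 2 lower in DN-SM than in the same SHAM libraries. Among all genes 2.57% were higher and 1.7% lower in DN, and 0.415% and 0.425% in DN-SM. Bmal1, an activator of the clock, was at 6.94 ± 1.43 FPKM in SHAM, 1.29 ± 0.36 in DN muscle and 1.12 ± 0.48 in DN-SM (adjusted p = 0.00232 and 0.00144). Per2, a repressor of the clock, was at 1.29 ± 0.19, 3.88 ± 0.31 and 5.26 ± 0.64 FPKM (adjusted p = 0.00232 and 8.89e-05). Bmal1, Per2 and Ciart passed in both comparisons also without any 1 of the 9 libraries (highest adjusted p = 0.0492). Dbp lost its call without 1 library in DN (DN replicate 1, adjusted p = 0.0509) and 5 in DN-SM (up to 0.0774), and Npas2 without 5 (up to 0.113) and 3 (up to 0.0942). With a library left out, the count in DN ran from 2 to 4 higher and 1 to 4 lower, and in DN-SM from 2 to 6 higher and 1 to 2 lower. Transcripts of Ucp3 and Pdk4 are known to vary with feeding and time of day, neither of which the labels give. The part of the time of collection in the values of Ucp3, Pdk4 and Lpin1 was not tested.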

How the data were processed

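Each deposited file lists, for 1 library, the expected count and FPKM of every gene above 0. Per the file headers, the expected count is RSEM's estimate, not normalized by the authors, and the FPKM values were scaled by the authors to length and depth. HISAT2, RSEM, GATK and build rn6 are named, per the submitters' processing notes; versions and settings are not given in the sources used here. An unlisted gene was taken as 0. Of 13752 IDs, 13649 were named by gene ID and 7 by transcript accession.

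Counts were rounded and tested with edgeR 4.0.16 (R 4.3.3; TMM, filterByExpr with minimum count 10 and total 15, robust, two-sided), after a test on simulated data. Log2 CPM used a prior count of 2. Alternatives were RLE factors, other filters, fits of 2 groups, a replicate block, limma 3.58.1 on log2(FPKM + 1) or log2(FPKM + 0.1), DESeq2 1.42.0, and leaving out each library. The total counts limit precision for genes with few counts.

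The members and lists were chosen with earlier results of these data known. Named were all members, up to 4 called genes per list or the 1 with the smallest p, and the 5 genes most like Ucp3. Ppara, Ppard, Ppargc1a, Acadvl, Hadhb, Ucp2, Cs, the marker genes and the clock genes and G0s2 were named outside this rule, the last 2 after values were seen. The correlation was planned over all 9 libraries and given over the 6 injured ones after SHAM was seen to lie apart.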

Additional observations from a re-analysis of the deposited data

How the results depend on the processing

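The direction of Ucp3 was the same in the 3 comparisons under every alternative run. Its calls were lost in DN against SHAM with no filter on low counts (log2 fold change -1.703, adjusted p = 0.0732) and with limma on log2(FPKM + 1) with no filter (-1.506, 0.0524). In DN-SM against SHAM they were lost with no filter (-2.225, 0.0802), in the fit of the 2 groups compared (-2.224, 0.0895) and with the replicate number as a block (-2.236, 0.0559). The count of members past the threshold was then 0 in each of these. With each library left out in turn, Ucp3 ranged from -1.911 to -1.311, -0.912 to -0.3 and -2.613 to -1.828 in the comparisons of DN with SHAM, DN-SM with DN and DN-SM with SHAM, and the count of members from 0 to 1, 0 to 0 and 0 to 1. Replicate numbers were not shown to pair libraries, since deviations of same-numbered libraries correlated at -0.048 to 0.109; the block changed no other call of a member. The cause of these losses was not tested.

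The number of genes past the threshold, against which the members are read, moved more. In DN against SHAM it was 432, and 156 in the fit of 2 groups, 267, 253 and 131 with limma on log2(FPKM + 1), log2(FPKM + 0.1) and log2(FPKM + 1) with no filter, 770 with DESeq2, and 58 (without DN replicate 3) to 1183 (without SHAM replicate 3) with a library left out. DESeq2 called 358 higher and 412 lower, where edgeR called 260 and 172. In DN-SM against DN it was 1, and 716 in the fit of 2 groups, 0 with limma on log2(FPKM + 0.1), 222 with DESeq2, and 0 to 416 (without SHAM replicate 3) with a library left out; the members past the threshold stayed at 0 throughout. In DN-SM against SHAM it was 85, and 28 in the fit of 2 groups, 39 with the replicate block, 47, 50 and 25 with the 3 limma settings, 266 with DESeq2, and 15 (without DN-SM replicate 1) to 137 (without SHAM replicate 2). The cause was not tested.

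Calls of list genes were also lost. In DN against SHAM the fit of 2 groups and the replicate block ended those of Cav1 (adjusted p = 0.0927 and 0.0664), Acaa2 (0.0959 and 0.0657), Acad11 (0.0921 and 0.0725) and Rxra (0.053 and 0.0548), as did limma under its 3 settings (Cav1 0.0728 to 0.114, Acaa2 0.059 to 0.0946, Acad11 0.134 to 0.189, Rxra 0.0666 to 0.1), which also ended that of Lpin1 (0.0524 to 0.0818) and of Esam (0.0587 to 0.0926). The fit of 2 groups ended those of Esam (0.0742) and Cacna1s (0.0679), limma with no filter that of Tie1 (0.0658), and no filter (0.0904), the block (0.0689) and limma with no filter (0.0524) that of Mbp. In DN-SM against SHAM the fit of 2 groups, the block and limma with no filter ended those of Rxra (0.0895, 0.0618 and 0.0814) and Pdk4 (0.121, 0.0611 and 0.0961). They also ended that of Cdh5 (0.0688, 0.0896 and 0.187), as did limma on log2(FPKM + 1) (0.127) and on log2(FPKM + 0.1) (0.123).

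Small fold changes of other members changed sign, none past the threshold. Cd36 in DN against SHAM was 0.001 with limma under its 3 settings. With libraries left out, DN against SHAM ranged from -0.23 to 0.218 for Cd36, -0.016 to 0.194 for Cpt2, -0.159 to 0.241 for Acsl1, -0.119 to 0.185 for Acadl and -0.459 to 0.371 for Lpl. DN-SM against DN ranged from -0.004 to 0.398 for Acsl1 and -0.355 to 0.489 for Lpl. DN-SM against SHAM ranged from -0.006 to 0.572 for Cd36, -0.291 to 0.196 for Fabp3, -0.184 to 0.024 for Cpt1b, -0.197 to 0.107 for Cpt2 and -0.544 to 0.603 for Lpl. The correlation with Ucp3 changed sign over all 9 libraries for Fabp3 (-0.152), Cpt1b (-0.066) and Cpt2 (-0.002). Without the 2 farthest libraries it did so for Cd36 (0.241) and Lpl (0.447). As deviations from group means it did so over 9 libraries for Fabp3 (-0.11), Cpt1b (-0.092) and Acadl (0.257), and over the 6 injured ones for Fabp3 (-0.263), Cpt1b (-0.557), Cpt2 (-0.202) and Acadl (0.163). With 1 injured library left out it did so without DN replicate 2 for Fabp3 (-0.138) and Cpt2 (-0.034), without DN-SM replicate 1 for Fabp3 (-0.117), Cpt1b (-0.244) and Cpt2 (-0.572), and without DN-SM replicate 3 for Cd36 (0.443) and Acadl (0.177). Ucp3 rested on 122 to 1369 expected counts per library and on 3 libraries per group.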
